A study of Mus musculus with 15 samples.

Results

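Microvessels from brain tumours of mice under dual anti-angiogenic therapy were compared, gene by gene, with microvessels from the brains of sham-operated mice. The dual therapy mice received Aflibercept-AMG386 (aflibercept and AMG386 together), and their vessels came from the tumour-bearing region 21 days after tumour cells were transplanted, in a model of orthotopic glioblastoma, an aggressive brain tumour grown at its site of origin. A triple therapy group received Aflibercept-AMG386 and anti-PD1, an antibody against a T cell checkpoint receptor, and an untreated tumour group received control IgG; both were sampled from the tumour region on the same day. A contralateral group was the non-tumour region of mice given control IgG. The sham group was healthy brain after a sham operation, with no IgG and no day of sampling in its labels. All mice were adult and wild type (WT BL6/57). Each group had 3 libraries, and each library pooled the vessels of 3 mice. Tumour, transplantation and drugs differ together between the dual therapy and sham groups, so they cannot be told apart in that comparison. The sources used here do not name the tumour line, the doses or the dosing schedule.

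The comparison was between 6 of the 15 libraries, while all 15 entered the estimate of the spread behind each SE and p-value. It covered every gene with a deposited score of at least 10 in at least 3 of the 15, which was 19668 of 27174 genes. No contrast entered this choice, but a gene could pass only through the groups where it was high. Of the tested genes, 337 scored 10 or more in all 3 dual therapy libraries and in no sham library. A score is the authors' normalised value per gene, rounded to a whole number. It is not a read count and is not divided by gene length, so levels are compared between libraries and never between genes. The 644 genes that reached 10 in exactly 3 libraries had a median highest score of 16, and the 906 genes that did so in exactly 2 libraries, and were left out, had a median highest score of 14. Of the tested genes, 134 were listed at 0 in all 3 sham libraries.

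Aflibercept is a soluble decoy that joins binding domains of VEGF receptors to an antibody tail, and it captures VEGF-A, VEGF-B and placental growth factor. AMG386 is a fusion of peptides to an antibody tail that keeps angiopoietins from their receptor Tek (also called Tie2). VEGF-A acts on endothelial cells mainly through Kdr and drives sprouting and leakiness. Angiopoietin 1 from mural cells keeps vessels quiescent through Tek, while angiopoietin 2, released by endothelial cells in growing or inflamed vessels, opposes it in many settings. Brain endothelium differs from that of other organs in its tight junctions, its transporters and its close cover of pericytes, which together form the blood-brain barrier.

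Estimated depth was 11792821 to 15535391 reads in dual therapy libraries and 6365348 to 14691859 reads in sham libraries. Endothelial signal was similar in both groups: summed scores of 18 endothelial identity genes were 70123 to 77505 under dual therapy and 66524 to 74218 in sham, and Pecam1, the adhesion molecule of endothelial junctions, scored 9894, 10739 and 9831 under dual therapy and 10129, 9594 and 9730 in sham. Dual therapy libraries were less alike than sham libraries, with Pearson correlations across genes of 0.941 to 0.957 among the dual therapy libraries and 0.972 to 0.975 among the sham libraries. Dual therapy replicate 2 stood apart on the second principal component (8.9% of variance), with a score of 66.38 there, against 20.04 and 38.74 for dual therapy replicates 1 and 3. Mitochondrial ribosomal RNA took 16.16% ± 1.1 of the dual therapy scores, 25.67% ± 6.52 of the untreated tumour scores and 12.16% ± 0.239 of the sham scores (SD, n = 3 each). The fit with totals that leave out mitochondrial and ribosomal RNA-like genes is given where it changes a result.

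Of 19668 genes, 3639 (18.5%) differed between dual therapy and sham vessels at an adjusted p below 0.05, by limma on log2(score + 1) with Benjamini-Hochberg adjustment over all tested genes. A gene is said to rise or fall only when it passed that threshold. In dual therapy vessels 1730 genes rose (8.8%) and 1909 fell (9.71%). The balance moved with the scaling: 47.5% of these calls were on the higher side, against 55.2% (2007 rose and 1629 fell) with totals that leave out mitochondrial and ribosomal RNA-like genes and 42.8% (1255 rose and 1678 fell) with scaling to endothelial identity genes. The genes that rose included larger changes: 624 rose and 234 fell by more than 2 log2 units, and 306 rose and 21 fell by more than 3. Genes near 0 in sham that passed the filter through other groups can differ far only upwards, so the directions are not on equal terms here. Without dual therapy replicate 2, 1483 genes rose and 1444 fell. The same fit placed 9167 genes (46.6%) apart between untreated tumour and sham vessels, of which 4577 rose (23.3%) and 4590 fell (23.3%). The share of those calls on the higher side was 49.9%, and 63.9% with totals that leave out mitochondrial and ribosomal RNA-like genes, which put the median difference of all genes at 0.22 in place of 0.03. These comparisons share the sham libraries. All differences below are dual therapy minus sham in log2 units ± SE unless another pair is named, and the median difference over all tested genes was 0.01.

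**Figure D1:**
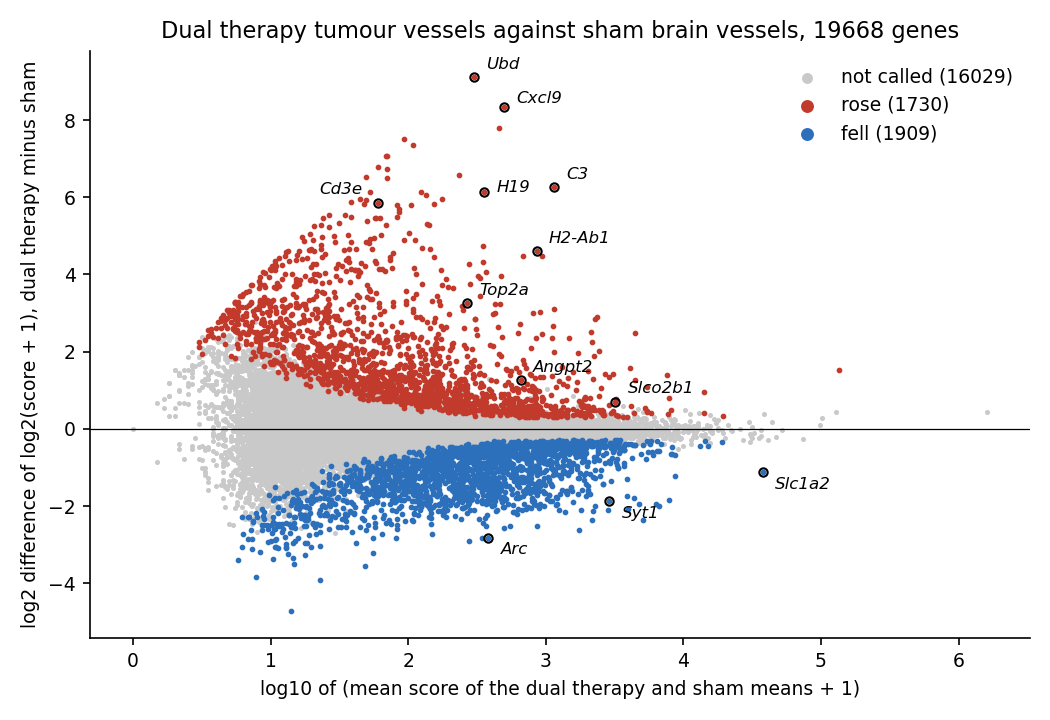
Each point is 1 tested gene, with log10 of the mean of its dual therapy and sham mean scores plus 1 on the x axis and its log2 difference, dual therapy minus sham, on the y axis. The 1730 genes that rose and the 1909 that fell are coloured, the other 16029 are grey, and the largest differences lie on the side of higher scores under dual therapy.

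The genes fell into groups that behaved very differently. Interferon response, antigen presentation, immune checkpoint, T and NK cell and cell division genes were higher in dual therapy vessels, neuronal genes were lower, and few or none of the genes of endothelial identity, the barrier, the tight junctions and the mural cells were called. Each group is described by how many of its measured members were called and by its median, beside the 8.8% and 9.71% of all genes. The members of the groups are not independent of each other. Some members scored below 10 in all sham libraries and passed the filter only through other groups. Among them were 19 of 22 T and NK cell genes, 8 of 30 proliferation genes and 7 of 17 endothelial activation genes. So were 5 of 8 B cell, 2 of 2 neutrophil, 4 of 14 immune checkpoint and 4 of 18 monocyte and macrophage genes.

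**Figure D2:**
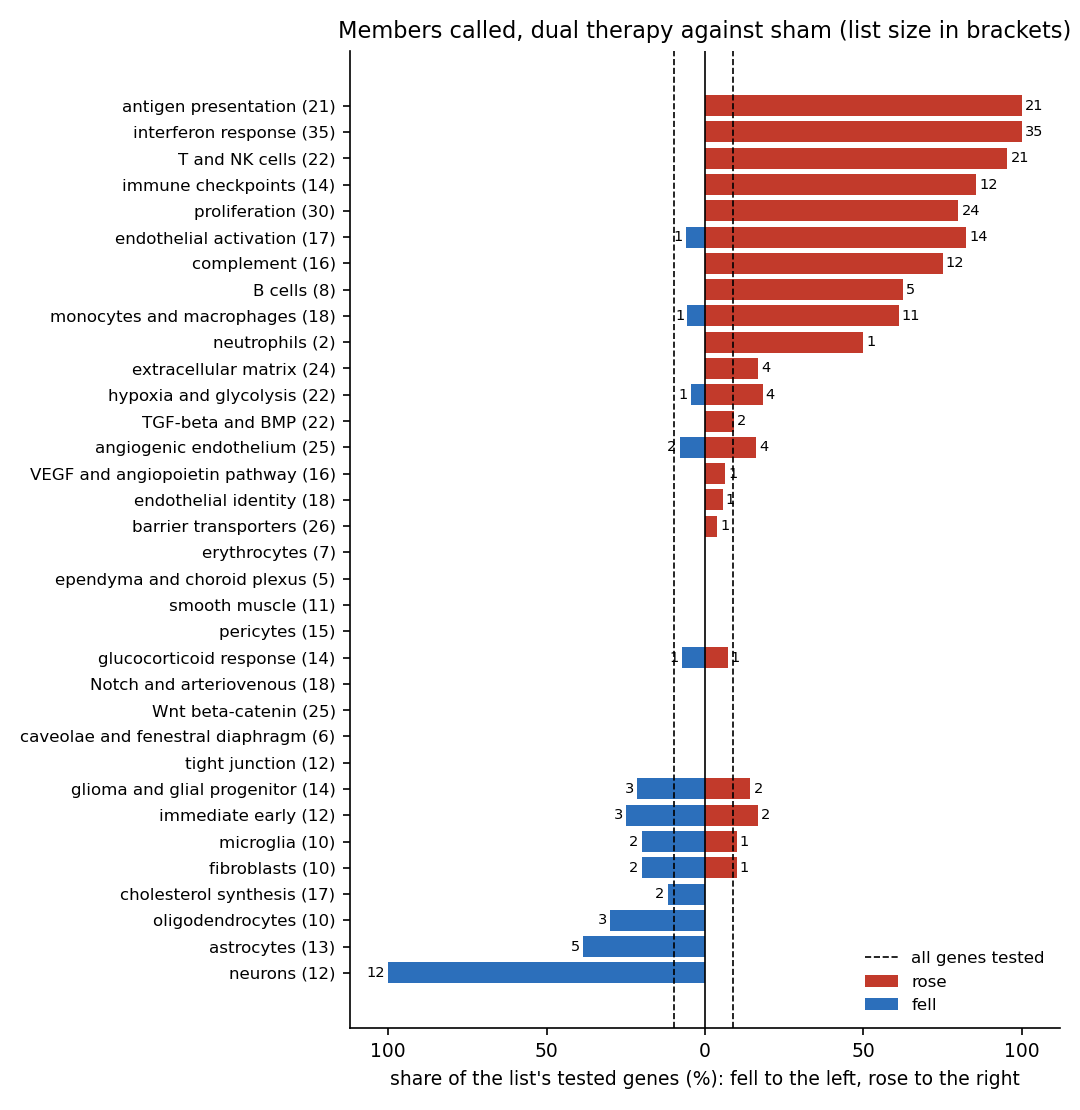
For each gene group, bars give the percentage of its tested genes that rose (to the right) and that fell (to the left) in dual therapy against sham vessels, with the dashed lines at the 8.8% and 9.71% of all tested genes. All 35 interferon response and all 21 antigen presentation genes rose, all 12 neuronal genes fell, and no tight junction, Wnt, Notch, pericyte or smooth muscle gene was called.

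The targets of the drugs came first. Of 16 genes of the VEGF and angiopoietin pathway, 1 rose and none fell, with a median difference of -0.04. The gene that rose was Angpt2, which encodes angiopoietin 2 (GRCm38 chr8:18690263-18741562, minus strand). Its scores were 1091, 869 and 819 in dual therapy vessels, 4009, 1971 and 1444 in untreated tumour vessels and 348, 454 and 355 in sham vessels. The 3 groups did not overlap, and dual therapy lay between the others, 1.26 ± 0.34 above sham (adjusted p = 0.0135) and -1.29 ± 0.34 from untreated tumour (adjusted p = 0.0114). The call against sham was lost without a mean-variance trend and without dual therapy replicate 1, sham replicate 1 or sham replicate 3 (adjusted p up to 0.0614), and the call against untreated tumour was lost with library weights, without a trend and without untreated tumour replicate 1 (adjusted p up to 0.0758). The number of pathway genes that rose was 3 with quantile normalisation, with totals that leave out mitochondrial and ribosomal RNA-like genes and without dual therapy replicate 2. By limma 3 pathway genes were higher and 1 was lower at an unadjusted p under 0.05.

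Kdr, the main signalling receptor for VEGF-A, scored 6640, 8450 and 6766 in dual therapy vessels and 6687, 8061 and 7780 in sham vessels. The groups overlapped and the difference was -0.05 ± 0.14 (95% interval -0.35 to 0.25). Flt1, the other receptor that binds VEGF-A, scored 45903, 61296 and 47488 under dual therapy, 27435, 45050 and 31020 in untreated tumour and 50085, 53406 and 53526 in sham. Its difference from sham was -0.03 (interval -0.42 to 0.35), while it was 0.60 ± 0.18 higher in dual therapy than in untreated tumour vessels (adjusted p = 0.026). That call was lost in 5 of 17 alternatives, among them the fits without dual therapy replicate 2, untreated tumour replicate 1 or untreated tumour replicate 3.

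Tek, the receptor of the angiopoietins, scored 9707, 11682 and 10258 under dual therapy, 3835, 6950 and 6180 in untreated tumour and 11181, 11463 and 10720 in sham. Dual therapy and sham overlapped, with a difference of -0.08 ± 0.17 (interval -0.43 to 0.27), and all dual therapy libraries lay above all untreated tumour libraries (0.94 ± 0.17, adjusted p = 0.000776). Angpt1, the stabilising ligand, scored 480, 360 and 551 under dual therapy, 140, 291 and 312 in untreated tumour and 499, 515 and 478 in sham. It differed from sham by -0.12 (interval -0.65 to 0.41) and from untreated tumour by 0.96 ± 0.25 (adjusted p = 0.0106), a call lost without dual therapy replicate 3 or untreated tumour replicate 1.

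Among the ligands that aflibercept binds, Vegfa scored 257, 246 and 333 in dual therapy vessels, 607, 432 and 386 in untreated tumour vessels and 255, 218 and 340 in sham vessels. Dual therapy and sham overlapped (difference 0.05, interval -0.39 to 0.49). The difference from untreated tumour was -0.75 ± 0.21 (adjusted p = 0.0155), a call lost without dual therapy replicate 2 or untreated tumour replicate 1. Pgf, the gene of placental growth factor, scored 395, 307 and 486 under dual therapy and 313, 307 and 306 in sham, a difference of 0.33 ± 0.16 (adjusted p = 0.172) that was called only without dual therapy replicate 2 (adjusted p = 0.0402). The assay measures RNA of these genes in vessels, and neither drug acts on RNA directly.

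**Figure D3:**
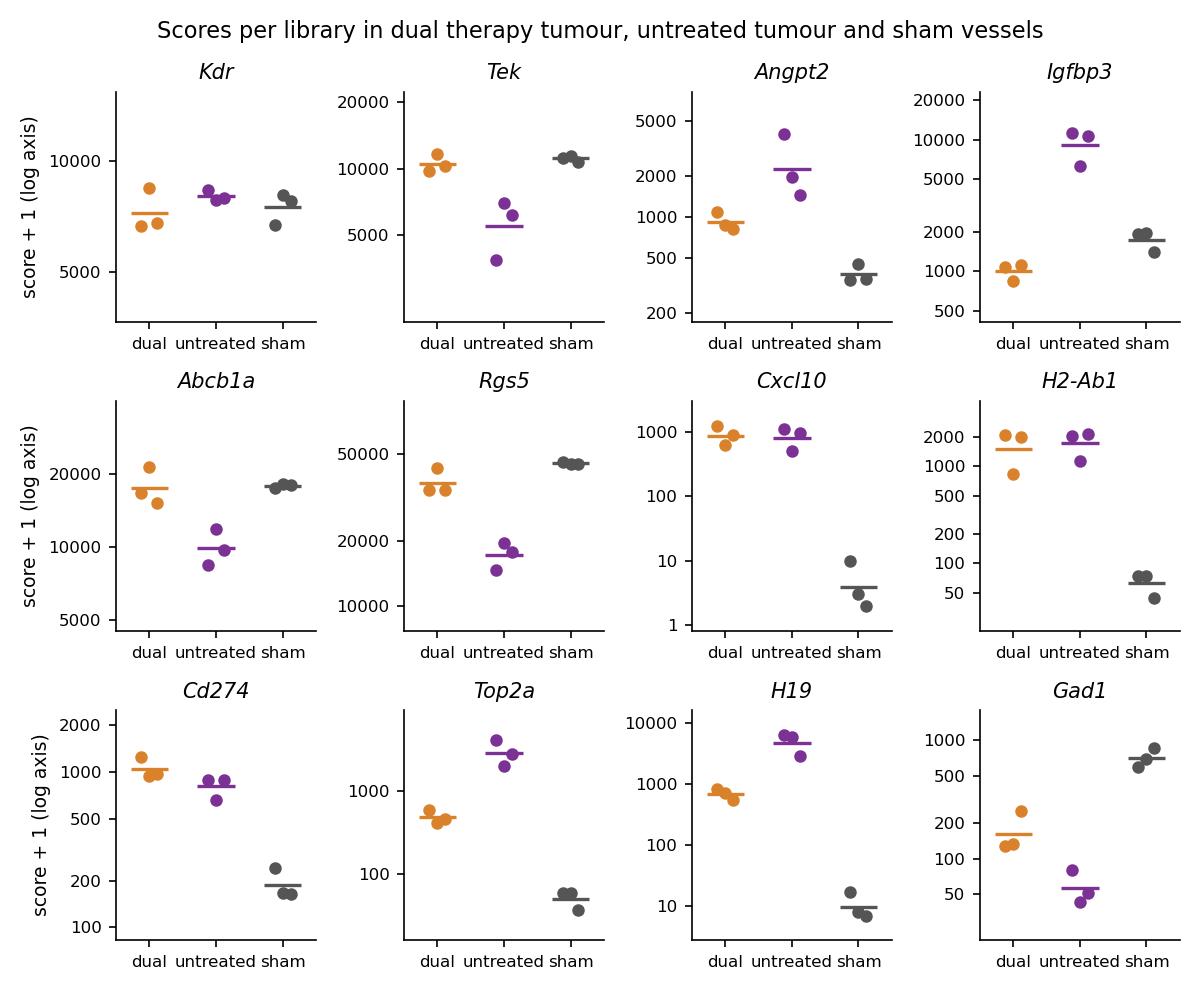
Score + 1 of 12 genes in each library on a logarithmic axis, with dual therapy left, untreated tumour in the middle and sham right, and a bar at the mean of the logarithms in each group. For Kdr, Tek, Abcb1a and Rgs5 the dual therapy points lie at or close to the sham points, for Cxcl10, H2-Ab1 and Cd274 they lie near the untreated tumour points, and for Angpt2, Top2a and H19 they lie between the other groups.

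Genes of angiogenic endothelium are those known from sprouting tip cells and tumour vessels. Of 25 members 4 rose and 2 fell, with a median of 0.13, beside 8.8% of all genes that rose and 9.71% that fell. Against untreated tumour 1 was higher and 16 were lower in dual therapy vessels (median -1.08), beside 12.1% of all genes higher and 10.2% lower in that comparison. Cxcr4, a chemokine receptor of tip cells and of leukocytes, rose by 2.14 ± 0.26 (adjusted p = 1.01e-05), with scores of 172, 75 and 164 under dual therapy and 27, 24 and 35 in sham. Mmp14, a membrane-bound matrix protease, rose by 0.99 ± 0.17 (adjusted p = 0.000417), with scores of 1016, 683 and 1359 under dual therapy and 466, 534 and 478 in sham. For both genes every dual therapy library lay above every sham library and below every untreated tumour library. Fscn1, an actin bundling protein, rose by 0.93 ± 0.32 (adjusted p = 0.048), with overlapping scores of 384, 130 and 322 under dual therapy and 95, 153 and 160 in sham, and its call was lost in 9 of 17 alternatives, 5 of them fits without dual therapy replicate 1 or 3 or any of the sham replicates. The number of members that rose was 2 without dual therapy replicate 1, sham replicate 1 or sham replicate 3.

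Igfbp3, which binds insulin-like growth factors and is induced in tumour endothelium, was lower in dual therapy vessels than in either other group (GRCm38 chr11:7206086-7213923, minus strand). It scored 1071, 837 and 1119 under dual therapy, 11223, 6285 and 10560 in untreated tumour and 1903, 1933 and 1395 in sham, with no overlap. The difference was -0.78 ± 0.22 from sham (adjusted p = 0.0183) and -3.18 ± 0.22 from untreated tumour (adjusted p = 4.87e-07). The call against sham was lost without a trend and without dual therapy replicate 2, sham replicate 1 or sham replicate 2 (adjusted p up to 0.09). Chst1, a carbohydrate sulfotransferase, likewise lay below both, at 120, 70 and 148 under dual therapy, 261, 225 and 177 in untreated tumour and 280, 301 and 356 in sham, with differences of -1.52 ± 0.23 from sham (adjusted p = 9.31e-05) and -1.01 from untreated tumour (adjusted p = 0.00436).

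The remaining members named here were chosen after their values were seen. Apln, the tip cell peptide apelin, scored 445, 419 and 803 under dual therapy, 4192, 2061 and 2026 in untreated tumour and 227, 201 and 220 in sham. The groups did not overlap, but the difference of 1.30 ± 0.47 from sham was not called (adjusted p = 0.0638); it was called with library weights (adjusted p = 0.0466) and in a fit of only the 2 groups compared (adjusted p = 0.000909). Its receptor Aplnr scored 67, 50 and 72 under dual therapy, 628, 460 and 674 in untreated tumour and 62, 67 and 39 in sham, a difference of 0.19 ± 0.37 from sham (interval -0.59 to 0.96) and of -3.20 ± 0.37 from untreated tumour (adjusted p = 2.32e-05). Esm1, a secreted proteoglycan of tip cells under VEGF control, scored 46, 30 and 34 under dual therapy and 108, 95 and 65 in sham. These did not overlap either (difference -1.25 ± 0.49, adjusted p = 0.0836), and the call was made in the fit of only the 2 groups (adjusted p = 0.0107) and with a replicate block (adjusted p = 0.0171).

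Endothelial identity was nearly level between dual therapy and sham. Of 18 pan-endothelial genes 1 rose and none fell (median 0.04), and all 18 intervals of the difference lay within 1 log2 unit of 0. The gene that rose was Robo4, an endothelial guidance receptor that stabilises vessels, at 1844, 2273 and 1884 under dual therapy and 1631, 1541 and 1518 in sham (0.35 ± 0.11, adjusted p = 0.0402). Its call was lost in 7 of 17 alternatives, among them the fits without dual therapy replicate 2 or any of the sham replicates. In bulk vessels, fewer cells of a type and less RNA per cell cannot be told apart.

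Transporters of the blood-brain barrier showed the same pattern. Of 26 members 1 rose and none fell (median -0.02), and 25 of the 26 intervals lay within 1 log2 unit of 0. Slco2b1, a carrier of organic anions, was the gene that rose, at 3825, 4211 and 3840 in dual therapy vessels, 2870, 3665 and 3171 in untreated tumour vessels and 2364, 2473 and 2443 in sham vessels (0.70 ± 0.11, adjusted p = 0.000124). It lay above sham and above untreated tumour in all 3 dual therapy libraries, although the difference from untreated tumour was not called (0.30, adjusted p = 0.0589). The number of members that rose was 3 with quantile normalisation or with totals that leave out mitochondrial and ribosomal RNA-like genes, and 2 without dual therapy replicate 1. By limma 3 members were higher and none was lower at an unadjusted p under 0.05.

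Abcb1a, the efflux pump P-glycoprotein, scored 16808, 21402 and 15270 under dual therapy, 8441, 11915 and 9709 in untreated tumour and 17561, 18186 and 18175 in sham. Dual therapy spanned the sham values (difference -0.03, interval -0.33 to 0.28) and lay wholly above untreated tumour (0.83 ± 0.14, adjusted p = 0.000661). Mfsd2a, a lipid carrier that restrains transcytosis in brain endothelium, scored 812, 1183 and 820 under dual therapy, 453, 627 and 342 in untreated tumour and 899, 910 and 865 in sham. Its difference was 0.05 from sham (interval -0.42 to 0.52) and 1.01 ± 0.22 from untreated tumour (adjusted p = 0.00381). Slc2a1, the glucose transporter of the barrier, scored 30670, 33544 and 22981 under dual therapy and 38709, 35613 and 28324 in sham, which overlapped (-0.24, interval -0.61 to 0.13), and it was 0.65 ± 0.18 above untreated tumour (adjusted p = 0.0127), a call lost without dual therapy replicate 2 or untreated tumour replicate 1, with quantile normalisation and in the fit of only the 2 groups.

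No tight junction gene of 12 was called against sham (median 0.12), and all 12 intervals lay between -0.63 and 0.94. By limma 2 members were higher at an unadjusted p under 0.05, voom called none, and 2 rose with quantile normalisation or with totals that leave out mitochondrial and ribosomal RNA-like genes. Cldn5, the main claudin of brain endothelium, scored 5821, 7830 and 6619 under dual therapy and 4989, 5329 and 5839 in sham. These values overlapped, the difference was 0.32 ± 0.15 (adjusted p = 0.146), and it was called with quantile normalisation (adjusted p = 0.0382) and with totals that leave out mitochondrial and ribosomal RNA-like genes (adjusted p = 0.0447). Tjp1, the junction scaffold ZO-1, scored 11813, 13754 and 12283 under dual therapy, 7647, 10346 and 8978 in untreated tumour and 12330, 12147 and 12840 in sham. It differed by 0.02 from sham (interval -0.24 to 0.27) and by 0.50 ± 0.12 from untreated tumour (adjusted p = 0.00677), a call lost in the fit of only the 2 groups.

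Caveolae and the fenestral diaphragm gave 6 genes, none of them called against sham (median -0.19), none past an unadjusted p under 0.05 in limma and none called by voom. Plvap, the diaphragm protein of leaky vessels, scored 365, 267 and 399 under dual therapy, 323, 270 and 504 in untreated tumour and 442, 599 and 377 in sham. All 3 groups overlapped, and the difference from sham was -0.45 ± 0.29 (interval -1.06 to 0.16). Wnt signalling through beta-catenin maintains the barrier in brain endothelium, and none of its 25 genes was called against sham (median -0.09), with 21 of 25 intervals within 1 log2 unit of 0. Ctnnb1, which encodes beta-catenin, scored 8387, 9863 and 7557 under dual therapy, 4535, 6816 and 5514 in untreated tumour and 10295, 9475 and 9388 in sham (difference -0.18 from sham, interval -0.49 to 0.13; 0.62 ± 0.15 from untreated tumour, adjusted p = 0.00588). Without dual therapy replicate 3, 2 members of that group fell. None of the 18 Notch and arteriovenous genes was called either (median -0.14). At an unadjusted p under 0.05 limma gave 1 lower Wnt gene and 1 lower Notch gene, and voom called none of either group.

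Of 15 pericyte genes and 11 smooth muscle genes none was called against sham, with medians of -0.21 and -0.09. At an unadjusted p under 0.05 limma gave 3 lower pericyte genes and no smooth muscle gene, and voom called none of either. The summed scores of the pericyte genes were 52138 to 64325 under dual therapy, 26016 to 31565 in untreated tumour and 67317 to 68441 in sham, so the dual therapy libraries lay below every sham library. Rgs5, described below, made up most of each of these sums. Of the 15 pericyte genes 5 lay wholly below sham and none wholly above it. The share of all tested genes that did so was not counted, so these counts say nothing particular about pericyte genes. The summed smooth muscle scores of 35552 to 46903 under dual therapy overlapped the 44796 to 48837 of sham. Rgs5, a regulator of G protein signalling that marks pericytes, scored 34316, 42950 and 34040 under dual therapy, 14627, 19529 and 17800 in untreated tumour and 46033, 45162 and 44910 in sham. Every dual therapy library lay below every sham library, but the difference of -0.30 ± 0.15 was called only when libraries were scaled to endothelial identity genes (adjusted p = 0.0483; 0.193 otherwise), while the 1.10 ± 0.15 above untreated tumour was called (adjusted p = 9.69e-05). Pdgfrb, the receptor that recruits pericytes, scored 2857, 2638 and 2272 under dual therapy, 1585, 1604 and 1845 in untreated tumour and 2700, 3282 and 3006 in sham. Its difference was -0.21 from sham (interval -0.48 to 0.06) and 0.62 ± 0.13 from untreated tumour (adjusted p = 0.00234). The pericyte list had 1 member that fell without sham replicate 1 or with endothelial scaling, and 2 in the fit of only the 2 groups. Myh11, the myosin of smooth muscle, scored 15501, 10882 and 14813 under dual therapy and 16172, 18160 and 17832 in sham (-0.36 ± 0.27, interval -0.92 to 0.21), with no overlap between those groups.

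**Figure D4:**
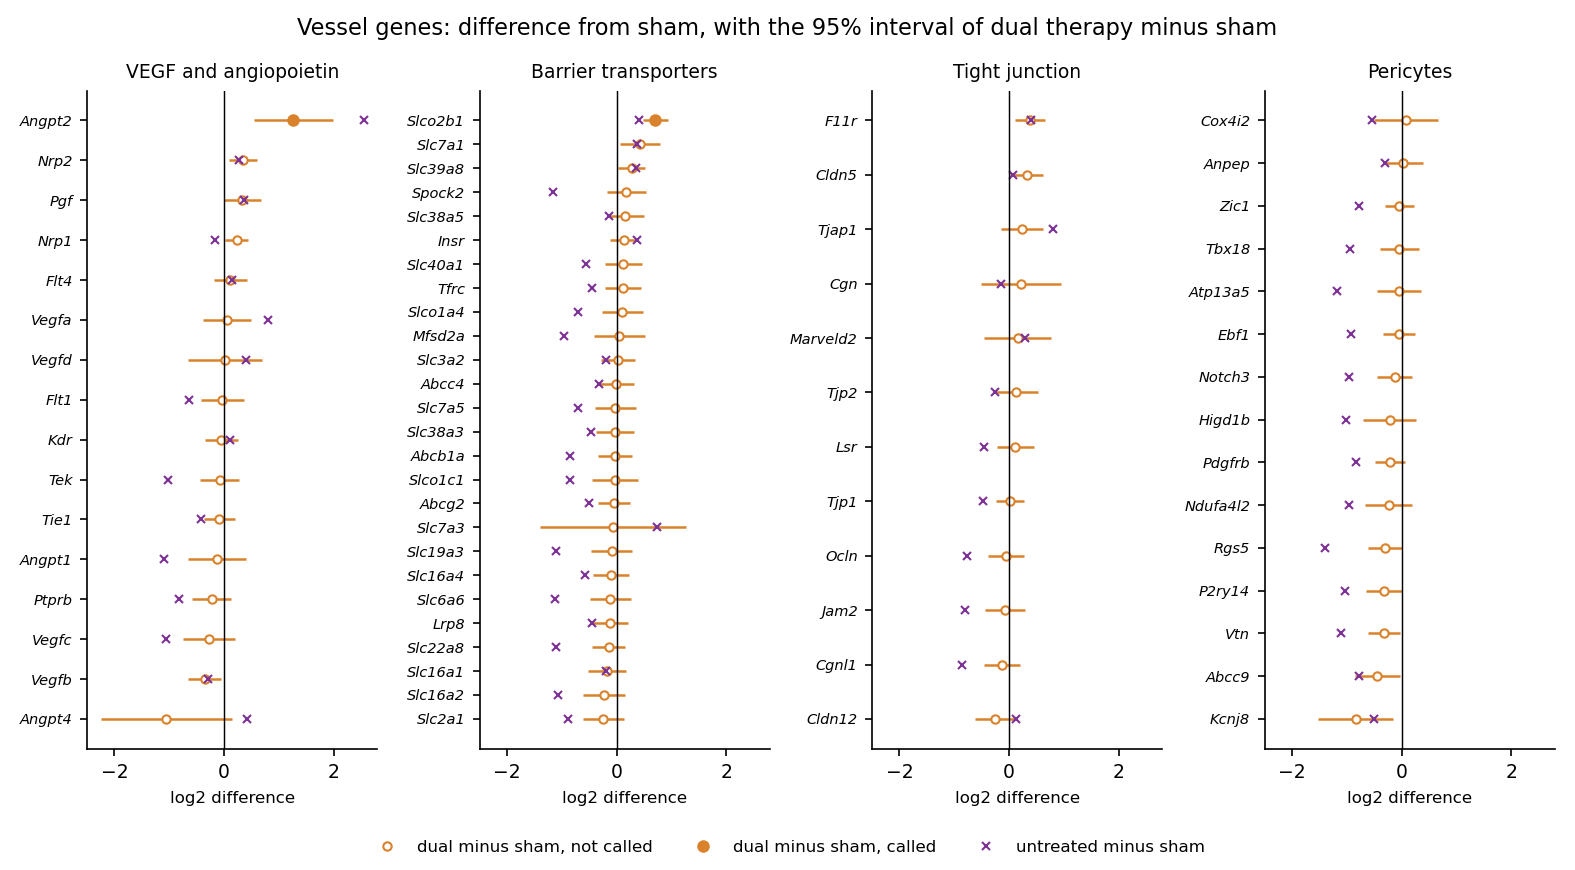
Log2 differences of dual therapy minus sham with 95% intervals for genes of the VEGF and angiopoietin pathway, barrier transporters, tight junctions and pericytes, and untreated tumour minus sham as crosses. Most dual therapy intervals include 0. Those above it number 3 in the VEGF and angiopoietin pathway, 3 among barrier transporters and 2 among tight junctions, with only Angpt2 and Slco2b1 called. Those below it number 1 in the VEGF and angiopoietin pathway and 3 among pericytes. Many crosses lie to the left of 0.

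Set against untreated tumour, many of these vessel genes were higher under dual therapy. Of 26 barrier transporters 15 were higher and none was lower (median 0.52), of 25 Wnt genes 12 were higher (median 0.42), and of 15 pericyte genes 11 were higher (median 0.74), beside 12.1% of all genes. Smooth muscle gave 8 of 11 higher, tight junctions 5 of 12 higher and 1 lower, Notch and arteriovenous genes 9 of 18 higher and 2 lower, and caveolae 4 of 6 higher. Endothelial identity gave 3 of 18 higher and 1 lower, and the VEGF and angiopoietin pathway 6 of 16 higher and 2 lower. Of the endothelial identity genes 5 were higher without untreated tumour replicate 2, and 3 were lower without untreated tumour replicate 1, with quantile normalisation, with scaling to endothelial identity genes and with totals that leave out mitochondrial and ribosomal RNA-like genes. Those lower were 2 without dual therapy replicate 1 or 3, with voom and with the replicate block. Of the VEGF and angiopoietin genes 2 were higher without untreated tumour replicate 1 and in the fit of only the 2 groups. Some of these counts rest on single libraries: 9 transporters were higher without dual therapy replicate 2, 5 smooth muscle genes without dual therapy replicate 1, dual therapy replicate 3 or untreated tumour replicate 1, 3 Notch genes without untreated tumour replicate 1, and 2 caveolar genes without dual therapy replicate 1 or untreated tumour replicate 1. In the fit of only the 2 groups 7 Wnt, 4 smooth muscle, 3 tight junction, 3 Notch and 2 caveolar genes were higher. Without a trend 5 smooth muscle, 3 Notch and 2 caveolar genes were higher, and 5 smooth muscle genes were with endothelial scaling. Over all genes, 54.3% of the calls between dual therapy and untreated tumour were on the higher side, and this share was 32.3% with endothelial scaling and 35.4% with totals that leave out mitochondrial and ribosomal RNA-like genes, which moved the median difference of all genes from -0.01 to -0.16 and -0.13.

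Endothelial activation stood in contrast. Of 17 adhesion molecules, chemokines and cytokines of inflamed endothelium 14 rose and 1 fell, with a median of 2.34. Cxcl10, a chemokine that draws T cells through the receptor CXCR3, scored 1206, 620 and 881 in dual therapy vessels, 1107, 496 and 943 in untreated tumour vessels and 9, 2 and 1 in sham vessels (GRCm38 chr5:92346638-92348889, minus strand). Its fitted difference from sham was 7.80 ± 0.53 (adjusted p = 5.16e-08), a size that depends on the value added before the logarithm and was 6.71 with 5 added. Cxcl9, which acts on the same receptor, scored 1457, 488 and 1012 under dual therapy and 6, 2 and 0 in sham (8.35 ± 0.73, adjusted p = 3.89e-07; 6.95 with 5 added), and its call was lost in voom on approximate reads (adjusted p = 0.0907). Dual therapy and untreated tumour overlapped for both, with differences of 0.12 (adjusted p = 0.902) and -0.13 (adjusted p = 0.921).

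The same group held Cxcl11, the third ligand of that receptor, which scored 300, 195 and 405 under dual therapy and 1, 4 and 12 in sham (5.83 ± 0.66, adjusted p = 5.07e-06); it is annotated as a polymorphic pseudogene in the deposited table. Ccl5, a chemokine made by T cells and activated endothelium, scored 155, 36 and 122 under dual therapy and 2, 4 and 2 in sham (4.65 ± 0.46, adjusted p = 1.28e-06). Among genes chosen after their values were seen, Selp, the adhesion molecule P-selectin on which leukocytes roll, scored 162, 56 and 81 under dual therapy and 3, 0 and 6 in sham (4.91 ± 0.65, adjusted p = 2.49e-05). Ackr1, an atypical chemokine receptor of venules, rose by 3.30 ± 0.46 (adjusted p = 3.72e-05), and Icam1, the firm adhesion ligand of leukocytes, rose by 1.14 ± 0.20 (adjusted p = 0.000326). For each of these the dual therapy and sham libraries did not overlap.

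Not every activation gene rose. Vcam1, an adhesion ligand that is also present in brain endothelium at rest, scored 6882, 4153 and 5504 under dual therapy and 3884, 4198 and 3392 in sham, which overlapped. Its difference of 0.50 ± 0.19 missed the threshold (adjusted p = 0.0752) and passed it with library weights (adjusted p = 0.0294), in the fit of only the 2 groups (adjusted p = 0.0413) and without dual therapy replicate 2 (adjusted p = 0.0206). Cx3cl1, the membrane chemokine fractalkine made by neurons and endothelium, fell by 0.81 on the log2 scale (SE 0.18, adjusted p = 0.00294), with scores of 969, 730 and 661 under dual therapy, 347, 549 and 601 in untreated tumour and 1391, 1401 and 1291 in sham. Dual therapy lay between the others for this gene, 0.68 above untreated tumour (adjusted p = 0.011), a call lost without dual therapy replicate 1 or untreated tumour replicate 1 and in the fit of only the 2 groups. Vcam1 and Cx3cl1 were also chosen after their values were seen.

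Every interferon response gene rose. Interferons signal through STAT factors to a set of antiviral and inflammatory genes, and all 35 members measured were higher in dual therapy than in sham vessels, by 0.61 to 3.96 log2 units with a median of 1.50. All 35 were called in each of the 17 alternatives. Irf7, a transcription factor that amplifies the response, scored 1924, 2010 and 1535 under dual therapy, 1224, 1571 and 1453 in untreated tumour and 498, 463 and 412 in sham (1.99 ± 0.15, adjusted p = 1.23e-07). Ifit2, an antiviral effector, scored 2898, 2782 and 2450 under dual therapy, 2087, 2070 and 2191 in untreated tumour and 626, 702 and 758 in sham (1.96 ± 0.16, adjusted p = 1.95e-07). For Ifit2 the dual therapy libraries lay above untreated tumour too, though that difference was not called (0.35, adjusted p = 0.115).

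Zbp1, a sensor of Z-form nucleic acids, scored 749, 505 and 550 under dual therapy and 54, 24 and 39 in sham (3.96 ± 0.34, adjusted p = 3.45e-07). Iigp1, an interferon-induced GTPase, scored 4653, 3729 and 4097 under dual therapy and 621, 514 and 543 in sham (2.89 ± 0.26, adjusted p = 4.87e-07). Gbp2b, a guanylate-binding protein that is not one of the 35, was among the 10 genes named for the largest fitted rises, at 227, 146 and 178 under dual therapy and 322, 102 and 201 in untreated tumour, and it was listed at 0 in all sham libraries. In all of these the dual therapy libraries lay above every sham library. Against untreated tumour, 3 of the 35 were higher and 2 were lower in dual therapy vessels, with a median of 0.06. No gene of the 35 was called in either direction without untreated tumour replicate 1, without a trend or in the fit of only the 2 groups, and none was higher without dual therapy replicate 1 or 2.

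An interferon-stimulated response element, searched as GAAA, any 2 bases and GAAA on both strands, was found in 17 of 25 interferon response promoters with a RefSeq entry (68%), and in 3.489% of 27025 mouse promoters of the same length. The promoters of Cxcl10, a member of the endothelial activation group, and of Gbp2b, neither of them among those 25, are shown as 2 windows that hold this motif. Each promoter runs from 250 bases before the annotated start to 50 after it, on GRCm38.p6, in the direction of the gene, with the matched letters in capitals (in Gbp2b the match is to the opposite strand). A match of letters describes the window and shows no binding. Cxcl10 is at chr5:92348840-92349139, minus strand, and Gbp2b at chr3:142594597-142594896, plus strand.
Cxcl10: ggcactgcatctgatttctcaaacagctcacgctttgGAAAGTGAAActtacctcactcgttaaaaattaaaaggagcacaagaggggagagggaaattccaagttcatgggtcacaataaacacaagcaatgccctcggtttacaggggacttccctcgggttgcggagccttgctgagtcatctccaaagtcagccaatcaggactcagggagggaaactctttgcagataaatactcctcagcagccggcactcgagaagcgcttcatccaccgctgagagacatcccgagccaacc
Gbp2b: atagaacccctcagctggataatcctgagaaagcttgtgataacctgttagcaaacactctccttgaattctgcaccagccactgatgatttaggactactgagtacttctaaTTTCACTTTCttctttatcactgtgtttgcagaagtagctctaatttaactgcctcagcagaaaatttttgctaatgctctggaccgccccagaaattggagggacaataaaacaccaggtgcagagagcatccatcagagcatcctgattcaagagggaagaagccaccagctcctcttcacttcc

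Antigen presentation rose as a whole. All 21 members, from class I and class II molecules to their loading machinery, were higher in dual therapy than in sham vessels, with a median of 2.11, and all 21 were called in every alternative. H2-Ab1, a class II chain that presents peptides to CD4 T cells, scored 2095, 831 and 2011 under dual therapy, 2060, 1141 and 2147 in untreated tumour and 74, 73 and 43 in sham (GRCm38 chr17:34263209-34269418, plus strand; 4.60 ± 0.35, adjusted p = 1.23e-07). H2-Eb1, the beta chain of another class II molecule, rose by 4.49 ± 0.39 (adjusted p = 4.03e-07), and Cd74, the invariant chain, rose by 4.47 ± 0.41 (adjusted p = 5.35e-07). Nlrc5, the transactivator of class I genes, scored 2176, 1937 and 1995 under dual therapy, 5955, 3900 and 5434 in untreated tumour and 336, 184 and 211 in sham. It was 3.11 ± 0.28 above sham (adjusted p = 5.17e-07) and was the member that was lower in dual therapy than in untreated tumour (-1.30 ± 0.28, adjusted p = 0.00313). Class II genes are near-identical within their locus in places, and the sources used here do not say how reads were split between them.

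Immune checkpoint genes were higher, the ligand of PD-1 among them. Of 14 genes 12 rose and none fell (median 2.32). The number that rose was 11 to 12 when single libraries were left out and 8 to 13 under the other alternatives. Cd274, which encodes PD-L1, the ligand that restrains T cells through PD-1, scored 1258, 945 and 974 in dual therapy vessels, 892, 662 and 892 in untreated tumour vessels and 240, 166 and 164 in sham vessels (GRCm38 chr19:29367455-29388095, plus strand). It rose by 2.48 ± 0.32 against sham (adjusted p = 1.79e-05), and its dual therapy libraries also lay above all untreated tumour libraries, a difference of 0.38 ± 0.32 that was not called (adjusted p = 0.431). In triple therapy vessels the scores were 709, 1355 and 344, which overlapped those of dual therapy.

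Pdcd1, the gene of PD-1 itself and the target of anti-PD1, scored 36, 3 and 44 under dual therapy, 14, 22 and 52 in untreated tumour and 0, 0 and 2 in sham. The spread between dual therapy libraries was wide (3.71 ± 0.90, adjusted p = 0.00639; 2.17 with 5 added), and the call was lost in voom on approximate reads (adjusted p = 0.0914). Pdcd1lg2, the second ligand of PD-1, scored 37, 24 and 54 under dual therapy and 1, 0 and 0 in sham (4.89 ± 0.66, adjusted p = 2.81e-05; 2.97 with 5 added). Ctla4, a checkpoint receptor of regulatory and activated T cells, scored 74, 25 and 103 under dual therapy and 0, 0 and 1 in sham (5.54 ± 0.51, adjusted p = 6.46e-07; 3.58 with 5 added). Havcr2, the receptor TIM-3 of exhausted T cells and of myeloid cells, rose by 1.97 ± 0.28 (adjusted p = 4.87e-05). None of these overlapped sham.

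Complement genes followed. Of 16 members 12 rose and none fell (median 1.16). C3, the central component, scored 2926, 895 and 2954 under dual therapy, 1532, 790 and 2128 in untreated tumour and 33, 20 and 23 in sham (6.26 ± 0.46, adjusted p = 9.74e-08). C4b, an earlier component of the cascade, scored 1390, 1318 and 1555 under dual therapy and 278, 240 and 315 in sham (2.36 ± 0.22, adjusted p = 6.98e-07). Itgb2, the integrin chain of complement receptors on leukocytes, rose by 2.85 ± 0.32 (adjusted p = 4.71e-06).

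Markers of leukocytes moved with all of these inflammatory genes, and their part in those results was not tested. Summed scores of 22 T and NK cell genes were 1217 to 1960 in dual therapy vessels, 1958 to 2309 in untreated tumour vessels and 102 to 157 in sham vessels. Of the 22, 21 rose (median 3.95, or 3.80 without Ifng, which was listed at 0 in sham), and 12 were called with a filter of 50 in place of 10. Cd3e, a chain of the T cell receptor complex, scored 133, 88 and 129 under dual therapy, 122, 98 and 123 in untreated tumour and 1, 0 and 3 in sham (5.86 ± 0.50, adjusted p = 3.37e-07; 4.27 with 5 added). Gzma, a granzyme of cytotoxic cells, scored 256, 283 and 256 under dual therapy, 484, 484 and 493 in untreated tumour and 9, 2 and 9 in sham (5.31 ± 0.39, adjusted p = 9.74e-08). Klrk1, the activating receptor NKG2D, rose by 4.44 ± 0.41 (adjusted p = 6.29e-07). No T and NK cell gene was called between dual therapy and untreated tumour (median -0.25), where limma gave 2 lower at an unadjusted p under 0.05, and 2 were called lower with 5 added, with voom and in the fit of only the 2 groups.

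Monocyte and macrophage genes were higher in part. Of 18 members 11 rose and 1 fell (median 1.66), with summed scores of 5639 to 8181 under dual therapy, 8335 to 14399 in untreated tumour and 5097 to 5383 in sham. Arg1, an arginase of alternatively activated macrophages, scored 131, 174 and 284 under dual therapy, 364, 290 and 299 in untreated tumour and 5, 6 and 3 in sham (5.09 ± 0.39, adjusted p = 1.23e-07). Gpnmb, a glycoprotein of tumour-associated macrophages, scored 1059, 555 and 400 under dual therapy, 3352, 1291 and 1691 in untreated tumour and 13, 28 and 30 in sham, which put it 4.73 ± 0.38 above sham (adjusted p = 1.9e-07) and -1.65 ± 0.38 from untreated tumour (adjusted p = 0.00461). Ccr2, the chemokine receptor of inflammatory monocytes, rose by 3.66 ± 0.35 (adjusted p = 8.43e-07), and Fcgr1, an Fc receptor, by 2.38 ± 0.27 (adjusted p = 4.76e-06). The member that fell was Mrc1, a mannose receptor of perivascular macrophages, at 1974, 1422 and 1483 under dual therapy and 2160, 2330 and 2116 in sham (-0.45 ± 0.14, adjusted p = 0.0344), a call lost in 9 of 17 alternatives, among them the fits without dual therapy replicate 2, dual therapy replicate 3 or any of the sham replicates.

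Microglia, the resident macrophages of the brain, showed a different picture. Of 10 genes 1 rose and 2 fell (median -0.25), with summed scores of 1463 to 1775 under dual therapy and 1676 to 2021 in sham. P2ry12, a purine receptor of resting microglia, scored 70, 75 and 96 under dual therapy, 136, 153 and 122 in untreated tumour and 153, 136 and 151 in sham, and it lay below both (-0.87 ± 0.18 from sham, adjusted p = 0.0014). Fcrls, another microglial receptor, scored 98, 97 and 89 under dual therapy and 218, 298 and 195 in sham (-1.29 ± 0.30, adjusted p = 0.00419). Cx3cr1, the fractalkine receptor of microglia and monocytes, scored 441, 313 and 562 under dual therapy and 306, 331 and 232 in sham, which overlapped (0.57 ± 0.18, adjusted p = 0.0345). Its call was lost in 7 of 17 alternatives, among them the fits without dual therapy replicate 1, dual therapy replicate 3, sham replicate 1 or sham replicate 3.

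Of 8 B cell genes 5 rose (median 2.05), at low scores. Ighm, the immunoglobulin M heavy chain, scored 161, 144 and 166 under dual therapy and 36, 48 and 57 in sham (1.74 ± 0.27, adjusted p = 0.000124), and Ms4a1, the surface protein CD20, scored 26, 37 and 16 under dual therapy and 3, 4 and 0 in sham (3.26 ± 0.71, adjusted p = 0.00275). The call of Igkc (3.05, adjusted p = 0.00936) was lost without dual therapy replicate 3 and in voom, and that of Pax5, chosen after its values were seen (1.45, adjusted p = 0.0255), in 6 of 16 alternatives, among them the fits without dual therapy replicate 1 or 3 and without sham replicate 1 or 3. In the group 3 members rose without dual therapy replicate 1, dual therapy replicate 3 or sham replicate 3, and 2 with the filter of 50. Neutrophils had 2 measured genes, of which S100a9 rose (12, 23 and 15 under dual therapy; 8, 2 and 1 in sham; 2.18 ± 0.70, adjusted p = 0.0358), with the call lost in 9 of 16 alternatives, among them every fit without a single library except the fit without sham replicate 1.

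**Figure D5:**
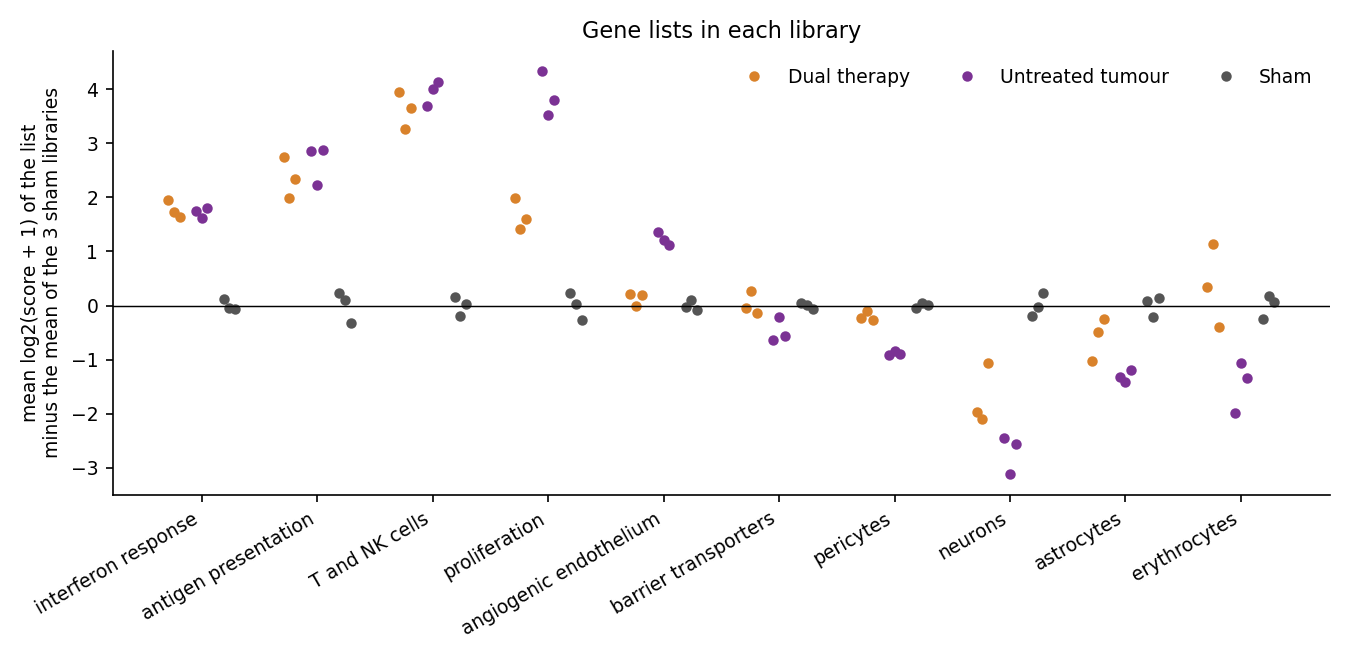
Mean log2(score + 1) of 10 gene groups in each library, relative to the mean of the sham libraries, with dual therapy left, untreated tumour next and sham last. Interferon, antigen presentation and T and NK cell genes are high in dual therapy and untreated tumour libraries alike, proliferation genes lie between untreated tumour and sham under dual therapy, and barrier transporters of dual therapy libraries lie around the sham level.

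Cell division genes were higher in dual therapy than in sham vessels and far lower than in untreated tumour vessels. Of 30 proliferation genes 24 rose and none fell against sham (median 1.36). The number that rose was 19 to 22 when single libraries were left out and 16 to 24 under the other alternatives, with 16 in voom. Against untreated tumour 29 of the 30 were lower (median -2.52). Top2a, the topoisomerase that untangles replicated DNA, scored 584, 412 and 454 in dual therapy vessels, 4153, 1999 and 2791 in untreated tumour vessels and 58, 58 and 35 in sham vessels (GRCm38 chr11:98992943-99024189, minus strand). It differed by 3.26 ± 0.33 from sham (adjusted p = 1.39e-06) and by -2.57 ± 0.33 from untreated tumour (adjusted p = 5.13e-05). Mki67, the proliferation antigen Ki-67 and chosen after its values were seen, scored 671, 335 and 597 under dual therapy, 5465, 1933 and 3323 in untreated tumour and 88, 102 and 94 in sham (2.43 ± 0.33 from sham, adjusted p = 3.32e-05; -2.67 ± 0.33 from untreated tumour, adjusted p = 4.09e-05). The 3 groups did not overlap for either gene.

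Tpx2, a spindle assembly factor, scored 139, 94 and 106 under dual therapy, 841, 526 and 530 in untreated tumour and 27, 20 and 19 in sham (2.31 ± 0.24 from sham, adjusted p = 1.9e-06). Cenpe, a kinetochore motor, rose by 2.42 ± 0.27 (adjusted p = 3.65e-06), and Birc5, the mitotic regulator survivin, by 3.02 ± 0.41 (adjusted p = 3.26e-05). Pcna, the replication clamp, was not called: it scored 403, 501 and 345 under dual therapy, 627, 605 and 533 in untreated tumour and 387, 383 and 399 in sham (0.08 ± 0.16, interval -0.25 to 0.40). Pcna was also chosen after its values were seen.

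The promoters of Top2a and Mki67 are shown as examples from the cell division genes that hold both motifs searched here. Of 25 proliferation promoters with a RefSeq entry 13 (52%) held the cell cycle homology region, searched as TTTGAA on both strands, against 18.105% of 27025 promoters, and 21 (84%) held the CCAAT box, against 37.92%. The CCAAT box was also in 13 of 16 antigen presentation promoters (81.25%) and in 11 of 20 hypoxia and glycolysis promoters (55%). The windows are as before, on GRCm38.p6, with both motifs in capitals on either strand. Top2a is at chr11:99024140-99024439, minus strand, with 2 matches to the first motif and 6 to the second, and Mki67 at chr7:135716330-135716629, minus strand, with 2 and 3.
Top2a: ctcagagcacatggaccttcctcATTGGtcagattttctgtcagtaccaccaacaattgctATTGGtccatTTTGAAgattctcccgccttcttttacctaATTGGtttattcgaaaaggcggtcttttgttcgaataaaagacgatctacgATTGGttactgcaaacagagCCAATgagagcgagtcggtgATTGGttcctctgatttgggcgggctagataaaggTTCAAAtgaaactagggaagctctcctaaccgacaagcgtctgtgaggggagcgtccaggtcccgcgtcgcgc
Mki67: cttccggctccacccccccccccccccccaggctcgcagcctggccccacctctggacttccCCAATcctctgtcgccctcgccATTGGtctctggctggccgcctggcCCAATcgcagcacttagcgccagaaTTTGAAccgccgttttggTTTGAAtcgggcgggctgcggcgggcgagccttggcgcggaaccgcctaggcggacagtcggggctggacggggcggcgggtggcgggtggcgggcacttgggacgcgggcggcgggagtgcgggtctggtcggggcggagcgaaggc

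Genes of glioma and glial progenitors divided. Of 14 genes 2 rose and 3 fell (median -0.01). H19, an imprinted long non-coding RNA of embryonic tissue and tumours, scored 838, 724 and 547 under dual therapy, 6530, 5892 and 2938 in untreated tumour and 16, 7 and 6 in sham, with no overlap between any groups (GRCm38 chr7:142575558-142578120, minus strand). It was 6.14 ± 0.57 above sham (adjusted p = 6.93e-07; 5.63 with 5 added) and -2.80 ± 0.57 from untreated tumour (adjusted p = 0.00224). Egfr, a growth factor receptor, fell by 0.59 on the log2 scale (SE 0.15, adjusted p = 0.00715), at 254, 274 and 287 under dual therapy, 149, 138 and 198 in untreated tumour and 455, 361 and 419 in sham. The calls of Ptprz1 (-0.82, adjusted p = 0.0238), Pdgfra (-0.64, adjusted p = 0.041) and Vim (0.34, adjusted p = 0.0493), a phosphatase of glial progenitors, a growth factor receptor of progenitors and fibroblasts and an intermediate filament, were lost in 7, 9 and 11 of 17 alternatives, which include fits without dual therapy replicate 2 or sham replicate 3 for each of them and without every other library for at least 1 of them. Vim was chosen after its values were seen.

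Pet2 scored 171, 97 and 145 under dual therapy, 1447, 842 and 801 in untreated tumour and 0 in every sham library, and Nxf3, a member of the nuclear RNA export factor family, scored 147, 79 and 64 under dual therapy, 607, 149 and 318 in untreated tumour and 0 in every sham library. Pet2 was lower in dual therapy than in untreated tumour vessels (-2.88 ± 0.41, adjusted p = 0.000133), as was Nxf3 (-1.75 ± 0.59, adjusted p = 0.0396), whose call was lost in 6 of 17 alternatives, among them the fits without dual therapy replicate 2 or 3 and without untreated tumour replicate 1 or 3. Other genes among the 10 named for the largest fitted rises, by the conditions used for the falls below with the mean taken under dual therapy, were inflammatory or matrix genes. Ubd, a ubiquitin-like protein induced by interferon and TNF, scored 718, 295 and 781 under dual therapy and 798, 210 and 379 in untreated tumour, and was listed at 0 in all sham libraries. Il1rn, the antagonist of the interleukin 1 receptor, scored 242, 127 and 279 under dual therapy and 1, 0 and 0 in sham (7.35 ± 0.59, adjusted p = 1.97e-07; 5.31 with 5 added). Ccl22, a chemokine that draws regulatory T cells, scored 150, 92 and 169 under dual therapy and 0, 0 and 1 in sham (6.73 ± 0.61, adjusted p = 5.33e-07; 4.70 with 5 added). Serpina3f, a serine protease inhibitor, scored 569, 349 and 468 under dual therapy and 4, 2 and 6 in sham (6.59 ± 0.60, adjusted p = 5.74e-07). Mmp3, the matrix protease stromelysin 1, scored 161, 153 and 95 under dual therapy and was listed at 0 in all sham libraries. The calls of Ubd and Mmp3 were lost in voom on approximate reads (adjusted p = 0.0541 and 0.179).

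Extracellular matrix genes gave 4 that rose and none that fell among 24 (median 0.14), beside 8.8% of all genes that rose and 9.71% that fell. The number that rose was 1 with endothelial scaling, without dual therapy replicate 1, without dual therapy replicate 3 or without any of the sham replicates. Tnc, the matrix protein tenascin C of growing tissue, scored 239, 203 and 392 under dual therapy, 2395, 563 and 1613 in untreated tumour and 75, 91 and 99 in sham (1.59 ± 0.38 from sham, adjusted p = 0.0056; -2.28 ± 0.38 from untreated tumour, adjusted p = 0.000485). The call against sham was lost in voom on approximate reads (adjusted p = 0.0811). The other members that rose, the laminin chain gene Lama4 (0.49, adjusted p = 0.0374), Tgfbi (0.77, adjusted p = 0.0394) and the proteoglycan gene Vcan (0.76, adjusted p = 0.0417), each lost the call in 8 of 17 alternatives, among them for all 3 genes the fits without dual therapy replicate 1, dual therapy replicate 3 or any of the sham replicates. Against untreated tumour 14 of 24 were lower and none was higher, and 9 were lower without dual therapy replicate 2 or without a trend.

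Hypoxia and glycolysis genes gave 4 that rose and 1 that fell among 22 (median -0.15). Pfkfb3, which sets the pace of glycolysis in endothelial cells, scored 2088, 1675 and 2161 under dual therapy, 1160, 1472 and 1841 in untreated tumour and 633, 629 and 672 in sham (1.61 ± 0.19, adjusted p = 7.94e-06). Hk2, the inducible hexokinase, scored 201, 119 and 236 under dual therapy and 36, 28 and 37 in sham (2.38 ± 0.30, adjusted p = 1.31e-05). Hif1a, the oxygen-regulated transcription factor, rose by 0.56 ± 0.12 (adjusted p = 0.00197), and Aldoa, a glycolytic aldolase, fell by 0.41 on the log2 scale (SE 0.11, adjusted p = 0.0105), a call lost without dual therapy replicate 2 (adjusted p = 0.0561). Car9, a carbonic anhydrase induced by low oxygen and chosen after its values were seen, scored 20, 24 and 18 under dual therapy, 64, 65 and 33 in untreated tumour and 9, 4 and 6 in sham (1.61 ± 0.44, adjusted p = 0.0147). Its call was lost without dual therapy replicate 2, without sham replicate 2 and in voom (adjusted p up to 0.104). The hypoxia response core ACGTG was present on either strand in 14 of 20 promoters of this group (70%) and in 19.667% of 27025 promoters.

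TGF-beta and BMP genes gave 2 that rose among 22 and none that fell (median 0.01). Smad1, a mediator of BMP signals, rose by 0.56 ± 0.15 (adjusted p = 0.016), a call lost without a trend and without dual therapy replicate 2 or sham replicate 1.

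Neuronal genes were the group that fell as a whole. All 12 neuronal genes were lower in dual therapy than in sham vessels (median -1.84), and 10 to 12 were called when single libraries were left out. Gad1, the enzyme that makes the transmitter GABA, scored 128, 132 and 249 under dual therapy, 80, 42 and 50 in untreated tumour and 588, 687 and 854 in sham (-2.11 ± 0.26 from sham, adjusted p = 1.32e-05; 1.53 ± 0.26 from untreated tumour, adjusted p = 0.0006). Slc17a7, the vesicular glutamate transporter, scored 243, 206 and 370 under dual therapy, 166, 95 and 133 in untreated tumour and 754, 942 and 1101 in sham (-1.80 ± 0.22, adjusted p = 1.32e-05). Rbfox3, the splicing factor NeuN, fell by 2.27 on the log2 scale (SE 0.28, adjusted p = 1.32e-05), and Tubb3, a neuronal tubulin, by 1.96 (SE 0.27, adjusted p = 3.86e-05). Summed neuronal scores were 4487 to 8719 in dual therapy vessels, 2028 to 3760 in untreated tumour vessels and 14691 to 19843 in sham vessels, without overlap. Against untreated tumour 10 of 12 were higher under dual therapy (median 1.12), and 5 of 12 with endothelial scaling or without dual therapy replicate 3, 6 without a trend or without untreated tumour replicate 2, and 4 in the fit of only the 2 groups.

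The genes named for the largest falls, among called genes with an established symbol, a mean score of at least 50 in sham and no overlap between the groups, were mostly genes of neurons. Arc, an immediate early gene of synaptic activity, scored 75, 88 and 114 under dual therapy and 448, 711 and 848 in sham (-2.82 ± 0.24, adjusted p = 3.18e-07). Diras2, a small GTPase of the brain, scored 102, 58 and 95 under dual therapy and 473, 555 and 770 in sham (-2.82 ± 0.25, adjusted p = 4.55e-07). Also named were the glycine receptor subunit Glra3 (-3.55 ± 0.85), the heparan sulfate sulfotransferase Hs6st3 (-3.20 ± 0.50), the vesicular GABA transporter Slc32a1 (-2.97 ± 0.51), Mpped1 (-2.84 ± 0.49), the GABA receptor subunit Gabrd (-2.82 ± 0.75) and the potassium channel subunits Kcnv1 (-2.74 ± 0.44) and Kcns2 (-2.72 ± 0.35). The call of Gabrd was lost without dual therapy replicate 2 or sham replicate 3 (adjusted p up to 0.0645).

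Glial genes fell in smaller numbers. Of 13 astrocyte genes 5 fell and none rose (median -0.79), with summed scores of 36928 to 65195 under dual therapy and 70875 to 94259 in sham. Slc1a2, the glutamate transporter of astrocyte endfeet and processes, scored 12264, 27404 and 35503 under dual therapy, 9231, 9599 and 9936 in untreated tumour and 53916, 38050 and 59457 in sham (-1.12 ± 0.26, adjusted p = 0.00519). This gene alone made up most of each summed astrocyte score in sham. Slc1a3, a second astrocyte glutamate transporter, fell by 0.86 on the log2 scale (SE 0.19, adjusted p = 0.00265), Aldoc, an aldolase of astrocytes, by 0.85 (SE 0.21, adjusted p = 0.00656), and Agt, which encodes angiotensinogen, by 1.39 (SE 0.39, adjusted p = 0.0172). The astrocyte count was 3 without dual therapy replicate 1, sham replicate 1 or sham replicate 3, and the call of Agt was lost without any of these or dual therapy replicate 2.

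Of 10 oligodendrocyte genes 3 fell (median -0.57). Cnp, an enzyme of myelin, scored 248, 265 and 458 under dual therapy and 496, 700 and 837 in sham (-1.09 ± 0.25, adjusted p = 0.00474), and Mag, a myelin adhesion protein, scored 63, 96 and 275 under dual therapy and 287, 255 and 425 in sham, which overlapped (-1.40 ± 0.38, adjusted p = 0.0142). Summed scores ran from 8934 to 36264 under dual therapy and from 21860 to 29946 in sham, so they overlapped. The count was 1 without dual therapy replicate 1, dual therapy replicate 2 or sham replicate 3, and 5 without dual therapy replicate 3. The call of Mag was lost without a trend and without dual therapy replicate 1, dual therapy replicate 2 or sham replicate 3, and that of Opalin (-1.59, adjusted p = 0.0406) in 9 of 16 alternatives, including the fit without each single library. None of 5 ependymal and choroid plexus genes was called (median -0.15), with none past an unadjusted p under 0.05 in limma and none called by voom.

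Fibroblast genes divided. Col3a1, a fibrillar collagen, rose by 0.89 ± 0.18 (adjusted p = 0.00162), at 2040, 968 and 1317 under dual therapy and 724, 826 and 682 in sham. Igf2, an imprinted growth factor, scored 6724, 6679 and 5528 under dual therapy, 3489, 4446 and 3882 in untreated tumour and 10343, 9667 and 9565 in sham (-0.65 ± 0.15, adjusted p = 0.00522). Slc6a13, a GABA carrier of meningeal cells, fell by 0.71 on the log2 scale (SE 0.20, adjusted p = 0.0161), a call lost without a trend and without dual therapy replicate 2 or sham replicate 2. The other 7 of 10 members were not called (median of all 10, -0.42). The number that fell was 5 without dual therapy replicate 1, 4 in the fit of only the 2 groups, and 1 without a trend, without dual therapy replicate 2 or without sham replicate 2.

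Erythrocyte genes, a measure of retained blood cells, gave no call among 7 against sham (median 0.38), with none past an unadjusted p under 0.05 in limma and none called by voom. Hbb-bs, an adult beta globin, scored 2046, 2447 and 894 under dual therapy, 351, 958 and 618 in untreated tumour and 1549, 1509 and 1378 in sham (0.16 ± 0.37, interval -0.63 to 0.94). Against untreated tumour all 7 were higher under dual therapy (median 1.64), and 3 were without dual therapy replicate 2 and 4 without untreated tumour replicate 1. The beta globin genes are near-identical copies, so the split of reads among them is uncertain.

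Some genes lay outside the range of sham and untreated tumour on the same side of both. Those named were called on that side against each, without overlap, and had the largest differences from untreated tumour in each direction. The number of genes that met these conditions was not counted. Nos2, the inducible nitric oxide synthase, was above both, at 178, 243 and 177 in dual therapy vessels, 100, 75 and 91 in untreated tumour vessels and 94, 73 and 43 in sham vessels (GRCm38 chr11:78920787-78960254, plus strand). It was 1.55 ± 0.31 above sham (adjusted p = 0.00142) and 1.15 ± 0.31 above untreated tumour (adjusted p = 0.013), and the second call was lost without dual therapy replicate 2 (adjusted p = 0.0602). Pde4c, a phosphodiesterase that breaks down cyclic AMP, scored 118, 262 and 149 under dual therapy, 54, 68 and 78 in untreated tumour and 79, 76 and 91 in sham (1.02 ± 0.25 from sham, adjusted p = 0.00778; lost without dual therapy replicate 2, adjusted p = 0.0564). Fam46c (0.72, adjusted p = 0.0385), Ddi1 (0.71, adjusted p = 0.0466) and the kinase gene Map3k8 (0.53, adjusted p = 0.02) were also above both, and their calls against sham were lost in 5, 9 and 4 of 17 alternatives, each of them without dual therapy replicate 2, sham replicate 2 or sham replicate 3. Triple therapy vessels scored 147, 241 and 132 for Nos2, close to the dual therapy values.

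Named below both were Igfbp3, given above, Exoc3l2, Cdh18, Pcyt1b and Zfp385b. Chst1, also given above, was likewise called below both without overlap. Exoc3l2, an exocyst-like protein of endothelial cells, scored 39, 29 and 23 under dual therapy, 68, 114 and 132 in untreated tumour and 100, 100 and 70 in sham (-1.55 ± 0.37 from sham, adjusted p = 0.00613; -1.73 ± 0.37 from untreated tumour, adjusted p = 0.00327). Cdh18, a neural cadherin, differed from sham by -2.12 ± 0.52 (adjusted p = 0.0066), Zfp385b by -1.37 ± 0.35 (adjusted p = 0.00936) and Pcyt1b, an enzyme of phosphatidylcholine synthesis, by -0.86 ± 0.26 (adjusted p = 0.0289). The call of Pcyt1b was lost in 8 of 17 alternatives, among them the fits without dual therapy replicate 1 or 2 and without sham replicate 2 or 3, and that of Zfp385b without dual therapy replicate 2 or sham replicate 3.

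Few genes were called between dual and triple therapy vessels, which does not show that anti-PD1 had little effect. Of 19668 genes 171 (0.869%) differed between dual and triple therapy vessels, 68 higher and 103 lower under dual therapy (0.346% and 0.524%). Against sham, triple therapy gave 1913 calls (9.73%), with 1080 that rose (5.49%) and 833 that fell (4.24%), and these comparisons share libraries with those above. Of the 68 and 103, none was called without dual therapy replicate 2 or without triple therapy replicate 1, and without triple therapy replicate 3 the counts were 11 higher and 18 lower. The share of calls on the higher side was 39.8%, and 52.6% with totals that leave out mitochondrial and ribosomal RNA-like genes. Diras2 scored 102, 58 and 95 under dual therapy and 270, 247 and 174 under triple therapy (-1.44, adjusted p = 0.0153), and Mrc1 scored 1974, 1422 and 1483 under dual therapy and 2595, 2102 and 3045 under triple therapy (-0.67, adjusted p = 0.0365). Those libraries did not overlap for either gene.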

How the data were processed

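RNA was sequenced from brain microvessels in 15 libraries of 5 groups (3 each, 3 mice pooled per library), from 100 ng of total RNA with a stranded total RNA kit, per the labels' protocols. Per the submitters' processing notes, STAR 2.4.0a, featureCounts 1.4.5-p1 and DESeq2 were used with the mouse build GRCm38. The authors deposited 1 table of 27174 genes whose values are whole numbers with unlike worth per read between libraries, so they were treated as a score: a normalised value that the authors rounded, not a count. The strand setting and the treatment of reads shared by near-identical genes are not given in the sources used here.

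Genes scoring at least 10 in at least 3 libraries were kept (19668; 7506 left out). log2(score + 1) was fitted with limma 3.58.1 (R 4.3.3) with a mean for each of the 5 groups, a mean-variance trend and 10 residual degrees of freedom, and p-values were adjusted by Benjamini-Hochberg over all 19668 genes, with calls at an adjusted p below 0.05. p-values measure the spread between pools of mice. Tested on simulated data made for dual therapy against sham over all 19668 genes, the fit recovered 96 of 100 genes changed 2-fold and 100 of 100 changed 4-fold, with 12 false calls. The changed genes were drawn only from genes with a mean sham score of at least 50. All genes and groups were given the same spread. The recovery therefore does not carry over to genes with low scores or to the wider spread of the dual therapy libraries. Depth per library was estimated from the steps between low scores (6365348 to 15535391 reads in the dual therapy and sham libraries; largest error on 7 simulated libraries, 0.0135 score units per read).

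The gene groups and the genes named were chosen with earlier results of these data known. Named are the 10 largest rises and falls (called genes with an established symbol whose groups did not overlap and whose higher group averaged 50 or more), up to 4 members of each group with the smallest p (or the 2 with the highest mean), a set of drug target and barrier genes, and genes apart from both sham and untreated tumour on the same side; genes outside that rule are said to be chosen after their values were seen. Alternatives changed 1 choice at a time: the value added (5), the filter, the scaling, library weights, the trend, the samples fitted, voom on approximate reads, a replicate block, and leaving out each library. The labels state no pairing by replicate number, and the main fit treated the samples as unpaired. Promoters are RefSeq windows on GRCm38.p6. Coordinates are those of the deposited table. Some genes that the rule names are not reported here.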

Additional observations from a re-analysis of the deposited data

Results flagged for a closer look

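The contralateral libraries held signal for genes that rose most in dual therapy vessels. They were set against no group above, but they entered the filter and the shared estimate of the spread. Of the 10 genes named for the largest fitted rises, 7 had all 3 contralateral libraries above every sham library. Mean contralateral scores were 10.7 for Ubd, 43.7 for Cxcl9, 34.7 for Cxcl10, 6 for Pet2, 9.33 for Ccl22 and 27.3 for Serpina3f. For Mmp3 the contralateral mean of 181 came from scores of 28, 511 and 4, so a single library carries most of it. No sham library scored above 9 for any of these genes. They were chosen for large differences from these same sham libraries, so lying above sham says little by itself. The share of all tested genes with contralateral libraries wholly above sham was not counted. Contralateral and sham vessels were not tested against each other.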

How the results depend on the processing

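The counts of genes that rose or fell in dual therapy against sham vessels stayed within 1.5 times the values given under every alternative, from 1314 to 1483 risen and 1315 to 1857 fallen when single libraries were left out. No pairing by replicate number is stated in the labels. Deviations of same-numbered dual therapy and sham libraries correlated at 0.187, -0.062 and 0.352, and not every library correlated best with its own number. The deviations were taken within groups of 3 libraries, so these values depend on each other and cannot settle whether samples were paired. A replicate block gave 1717 risen and 1903 fallen. Against untreated tumour, 987 genes were higher and 1218 lower in the fit of only the 2 groups, 1085 were higher with endothelial scaling, and 1144 to 2151 were lower when single libraries were left out, lowest without untreated tumour replicate 1. Against triple therapy, higher and lower genes numbered 0 and 0 with endothelial scaling, 104 and 223 with library weights, 9 and 5 without a trend, and 12 and 19 in the fit of only the 2 groups. There were also 45 lower with totals that leave out mitochondrial and ribosomal RNA-like genes, 103 higher with voom, and 0 to 111 higher and 0 to 202 lower without single libraries. Triple therapy against sham gave 461 fallen with endothelial scaling, 539 without a trend, 1585 with weights, 1700 in the fit of only the 2 groups and 328 to 625 without single libraries, with 1639 risen with weights.

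Signs turned only for genes not called against sham, all near 0. Abcb1a was 0.036 with totals that leave out mitochondrial and ribosomal RNA-like genes, Flt1 0.083 with quantile normalisation and 0.03 with those totals, Kdr 0.046 and 0.015, and Tjp1 -0.029 with endothelial scaling. Without single libraries the ranges were -0.166 to 0.078 for Abcb1a, -0.257 to 0.049 for Angpt1, -0.049 to 0.343 for Aplnr, -0.164 to 0.044 for Flt1, -0.127 to 0.599 for Hbb-bs, -0.159 to 0.015 for Kdr, -0.127 to 0.144 for Mfsd2a, -0.063 to 0.205 for Pcna, -0.046 to 0.064 for Tjp1 and -0.092 to 0.227 for Vegfa. Of 144 genes followed through the alternatives, 120 were called against sham, and 79 of these were called under every alternative. The causes were not tested. Low scores limit genes near 0 in sham, whose fitted differences move with the value added.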

Other observations

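Immediate early genes, which cells switch on within minutes of a stimulus, moved both ways between dual therapy and sham vessels. Of 12 members 2 rose and 3 fell, with a median of 0.26. Arc was the member with the largest fall. Egr3, a zinc finger factor induced by neuronal activity and growth factors, scored 153, 116 and 167 under dual therapy and 311, 394 and 385 in sham (-1.33 ± 0.27, adjusted p = 0.00142). Egr1, its relative, differed by -1.09 (adjusted p = 0.00746), a call lost without dual therapy replicate 2 (adjusted p = 0.0547). Atf3, a stress-induced factor, scored 204, 210 and 214 under dual therapy and 74, 84 and 113 in sham (1.23, adjusted p = 0.00992). Jun, a subunit of the AP-1 factor chosen after its values were seen, scored 2142, 2258 and 2275 in dual therapy vessels, 1234, 1336 and 1701 in triple therapy vessels, 1414, 1497 and 1626 in untreated tumour vessels and 1345, 1758 and 1944 in sham vessels. Its dual therapy libraries lay above those of every other group named here (0.42 against sham, adjusted p = 0.0323; 0.66 against triple therapy, adjusted p = 0.0274). The call against sham was lost in 7 of 17 alternatives, among them the fits without any of the dual therapy replicates, sham replicate 1 or sham replicate 2.

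Calls among cholesterol synthesis and glucocorticoid response genes are given beside the 8.8% of all genes that rose and the 9.71% that fell. Of 17 cholesterol genes 2 fell (median -0.24): Hmgcs1, an early enzyme of the pathway (-0.47, adjusted p = 0.0217), and Sc5d, a late one (-0.34, adjusted p = 0.0357). Neither call held without dual therapy replicate 1, dual therapy replicate 3 or sham replicate 1, and Sc5d was also lost without dual therapy replicate 2 or sham replicate 2 and Hmgcs1 without sham replicate 3. Of 14 glucocorticoid genes 1 rose and 1 fell (median -0.10). Lcn2, the siderophore-binding protein lipocalin 2, scored 168, 169 and 149 under dual therapy and 49, 74 and 22 in sham (1.88 ± 0.44, adjusted p = 0.00469). Klf9, a factor induced by glucocorticoids, scored 3818, 4300 and 3328 in dual therapy, 1519, 2109 and 1843 in untreated tumour and 5759, 4771 and 4702 in sham (-0.41, adjusted p = 0.0326), and its call was lost without a trend and without dual therapy replicate 1, dual therapy replicate 3, sham replicate 1 or sham replicate 2.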
